A study of Caenorhabditis elegans with 46 samples.

Results

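The microRNAs miR-67, miR-86 and miR-785 of Caenorhabditis elegans were followed through a series of small RNA libraries in which microRNAs of chosen cell types were marked by a plant enzyme. Both arms of each of the 3 hairpins had counts, which gave 6 members (cel-miR-67-3p, cel-miR-67-5p, cel-miR-86-5p, cel-miR-86-3p, cel-miR-785-3p and cel-miR-785-5p, written without the prefix below) of the 467 worm arms with at least 1 count. The group was chosen from earlier results of the same libraries for levels after oxidation in worms with the enzyme in body wall muscle, under the myo-3 driver. miR-785 was included as a relative of miR-86. All values from the myo-3 libraries are therefore a description, with no test. In those libraries both arms of miR-86 and the passenger arm miR-67-5p stood far above their untreated level, miR-67-3p kept about its untreated share, and miR-785-3p was nearly lost. The main arm of miR-785 thus did not share the gain of its relative miR-86 with myo-3. It stayed near its untreated level with the 3 pan-neuronal drivers instead.

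A microRNA is cut from a hairpin as a duplex. One strand, the guide, stays in an Argonaute protein and pairs with messenger RNAs through its seed, whereas the other, the passenger strand, is mostly degraded. Animal microRNAs usually carry a free 3′ end, which sodium periodate oxidises so that the RNA can no longer be ligated into a library. HEN1 of Arabidopsis thaliana (Ath-HEN1) methylates that end on microRNA duplexes and so protects both strands from oxidation. The worm has its own methyltransferase, HENN-1, encoded by henn-1, which acts on piRNAs and on some endogenous small interfering RNAs. miR-86 and miR-785 belong to the same seed family, and miR-67 of the worm is widely used as a negative control in mammalian cells.

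Total RNA came from whole worms at the first larval stage (L1), and each of the 11 genotypes was sequenced untreated and after periodate. Wild type worms (strain N2) carried no plant enzyme. In 8 genotypes a null allele, henn-1(0), was combined with Ath-HEN1 under 1 of 8 drivers: rps-5, a ribosomal protein gene, for broad expression; rab-3, unc-31 or rgef-1 for the nervous system; elt-2 for the intestine; myo-2 for pharyngeal muscle; myo-3 for body wall muscle; and ASE for the pair of ASE taste neurons. Ath-HEN1 under myo-3 or ASE was in addition carried by worms that the labels otherwise give as wild type, written henn-1(+) here. Each genotype and treatment had 2 libraries, and the rps-5 genotype had 3; single libraries are named below by the number in their label. In transgenic worms the replicates were separate transgenic lines, except that 2 of the 3 rps-5 replicates came from the same line. How completely a driver marks its tissue was not measured in these libraries, and with RNA of whole worms fewer cells of a type and less RNA per cell cannot be told apart.

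The total count of a library ran from 10674772 to 43302426 without oxidation and from 425711 to 35253784 after it. Levels are given per 1000000 counts of the library (CPM). Differences are log2 of oxidised over untreated counts with the standard error (SE) of 1 edgeR fit over all 46 libraries. The marker microRNAs followed their tissues in the myo-3 henn-1(0) worms: miR-1-3p of muscle stood 3.51 ± 0.41 higher after oxidation, and miR-124-3p of neurons, miR-60-3p of intestine and lsy-6-3p of the left ASE neuron stood at −5.29, −4.19 and −5.36. With elt-2 and myo-2 the markers of other tissues stood at −3.07 to −5.45. Not every genotype parted the markers this far. In ASE henn-1(0) worms miR-1-3p and miR-60-3p stood at −1.19 and −1.33. miR-60-3p stood at −0.74 with rab-3, but at −3.42 and −3.59 with unc-31 and rgef-1. With the broad rps-5 driver miR-60-3p and lsy-6-3p stood at −1.14 and −1.98. The zero of these differences depended on the scaling. The median of all 395 arms tested stood at −2.20 in wild type, −1.83 in ASE henn-1(+), −1.72 in myo-3 henn-1(0) and 0.50 in rps-5 worms, and RLE factors moved these medians by 2.39, 2.36, 1.70 and −0.23. The reference library of the TMM scaling was an oxidised myo-3 henn-1(+) library, and an untreated library of the same line took its place in 39 of the 46 sets of libraries with 1 left out. Most differences below are therefore accompanied by their distance from the median arm of the same comparison, which moved less with the scaling. The distance still depended on how libraries were averaged. Where stated, it is also given from unweighted means of log2(count + 0.5) in place of the fit.

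Called members are to be read against all arms. Whether oxidised and untreated libraries were apart was not counted over all arms or other hairpins, so below it only describes the members. In wild type worms 3 of 5 members with a fitted value were called lower at an adjusted p of 0.05, where 48.9% of all arms were lower and 69.6% were called in either direction. In rps-5 worms 3 of 6 were lower (22.5% of all arms lower, 57.5% either way). With rab-3, 3 of 6 were lower and 2 higher (36.7% lower, 36.2% higher, 72.9% either way). With unc-31, 2 of 5 were lower and 1 higher (36.7%, 31.4% and 68.1%), and with rgef-1, 2 of 6 were lower and 2 higher (32.9%, 39.5% and 72.4%). With elt-2, 5 of 5 were lower (46.8% of all arms lower, 74.9% either way), and so were 5 of 5 with myo-2 (46.3% and 66.8%). In ASE henn-1(0) worms 2 of 5 were lower and 1 higher (20%, 17.5% and 37.5%), and in ASE henn-1(+) worms 4 of 5 were lower (48.4% and 71.9%). With RLE factors the miR-67-5p call with elt-2 and the miR-67-5p and miR-86-3p calls with myo-2 were lost. The miR-785-3p call in ASE henn-1(0) worms was lost as well. Other lower calls turned positive with these factors: miR-86-3p in wild type (0.56), and miR-67-3p (1.48) and miR-67-5p (0.49) in ASE henn-1(+) worms. For myo-3 henn-1(0) and myo-3 henn-1(+) the shares of all arms called were 69.6% and 59%, given only as background. All 6 members passed the filter on low counts. miR-785-5p, with at most 32 counts in any library, has no fitted value where a group held 3 counts or fewer.

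In the worm genome (WBcel235), the miR-67 hairpin lies on chromosome III, 5931349 to 5931447, minus strand, in an intron of zmp-1, a zinc metalloprotease gene of the same strand. The end of the hairpin, outside both arms, overlaps EGAP1.4, a noncoding RNA of the opposite strand at 5931430 to 5931560. The miR-86 hairpin lies on the same chromosome at 11936637 to 11936734, minus strand, in an intron of the protein-coding gene Y56A3A.7. The miR-785 hairpin lies on chromosome X, 3004668 to 3004761, plus strand, between genes. The guide arms were annotated as miR-67-3p (5931364 to 5931387, 24 nt), miR-86-5p (11936697 to 11936719, 23 nt) and miR-785-3p (3004726 to 3004747, 22 nt). Their levels were far apart. By mean CPM over the 23 untreated libraries, miR-86-5p ranked 11 of the 467 arms, miR-67-3p 18, miR-785-3p 115, miR-86-3p 136, miR-67-5p 225 and miR-785-5p 383.

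miR-86-5p, the guide of its hairpin, gained the most share with the plant enzyme in body wall muscle. Across untreated libraries it ranged from 18300 to 32200 CPM with a median of 26000. In myo-3 henn-1(0) worms it stood at 23700 and 23500 CPM untreated and at 101000 and 95900 CPM oxidised. In myo-3 henn-1(+) worms it stood at 22000 and 18300 CPM untreated and at 75700 and 68500 CPM oxidised. The oxidised libraries of both genotypes lay above every untreated library of the series. The mean went from 23600 ± 148 to 98500 ± 3640 CPM (SD, n = 2), a ratio of 4.18, without henn-1 and from 20100 ± 2640 to 72100 ± 5030 CPM, a ratio of 3.58, with it. The log2 differences were 2.11 ± 0.29 and 1.76 ± 0.28, which is 3.83 and 2.75 above the median arm. Without the oxidised henn-1(+) library that served as the TMM reference, the second value was 1.44.

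In wild type worms, which lack the plant enzyme, and in worms with it in the ASE neurons and henn-1 intact, miR-86-5p fell after oxidation. Wild type libraries held 27600 and 28200 CPM untreated and 9500 and 10200 CPM oxidised, and the difference was −3.61 ± 0.30 (adjusted p = 7.36e-13, edgeR), or −1.41 relative to the median arm. With unweighted means that distance was −2.27. Every adjusted p here comes from edgeR's quasi-likelihood test after the Benjamini-Hochberg procedure over all arms. The ASE henn-1(+) libraries were close to this, at 25200 and 25600 CPM untreated and 7830 and 7720 CPM oxidised (−3.58 ± 0.30, adjusted p = 5.57e-13). Oxidised and untreated libraries were well apart in both. The depletion was deepest where the enzyme was in intestine or pharyngeal muscle. With elt-2, miR-86-5p fell from 27500 and 26800 CPM to 1200 and 1010 CPM (−4.68 ± 0.32, adjusted p = 4.18e-15). With myo-2, it fell from 21400 and 22100 CPM to 1520 and 1280 CPM (−3.97 ± 0.31, adjusted p = 1.81e-13). These 4 oxidised libraries were the lowest of the series for this arm, at −3.25 and −2.36 relative to the median arm (−3.49 and −2.79 with unweighted means). Against wild type the elt-2 effect differed by −1.07, a call that was lost on leaving out some single libraries. The myo-2 effect was not called different from wild type, at −0.61 to −0.05 with 1 library left out. The muscle marker miR-1-3p was higher after oxidation with myo-2 (2.34 ± 0.39) as with myo-3, so that the 2 muscle drivers gave like signs for this marker and opposite ones for miR-86-5p.

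With broad or neuronal drivers miR-86-5p moved less, and its groups overlapped in 2 of 5 genotypes. In rps-5 worms it went from 30400, 26600 and 23100 CPM to 24200, 19800 and 15200 CPM, with overlapping groups (−0.71 ± 0.23, adjusted p = 0.00841). Without untreated library 36208 that call was lost (−0.57, adjusted p = 0.0537, edgeR). In rab-3 worms the libraries did not overlap, with 23300 and 26000 CPM untreated and 11800 and 13500 CPM oxidised (−1.43 ± 0.28, adjusted p = 3.05e-05). The unc-31 libraries overlapped, with 26600 and 32200 CPM untreated and 27800 and 20000 CPM oxidised (−1.02 ± 0.28, adjusted p = 0.00164). That call did not hold without oxidised library 32954 (−0.56, adjusted p = 0.0922, edgeR) or with total counts (−0.30, adjusted p = 0.191). In rgef-1 worms 31900 and 28600 CPM stood against 27800 and 25900 CPM (−0.36 ± 0.27, adjusted p = 0.24, edgeR), and the groups were apart with oxidised below untreated. In ASE henn-1(0) worms 26700 and 26000 CPM stood against 31900 and 38900 CPM (−0.22 ± 0.27, adjusted p = 0.563, edgeR). There the oxidised CPM was the higher, at a ratio of means of 1.34, and the difference was positive, though not called, with RLE factors (0.25), total counts (0.43), the other TMM reference (0.31) and fits of the genotype's own libraries (0.31). Relative to the median arm these 5 genotypes lay between −1.39 and 0.36. The other 6 genotypes lay between −3.25 and 3.83.

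**Figure D1:**
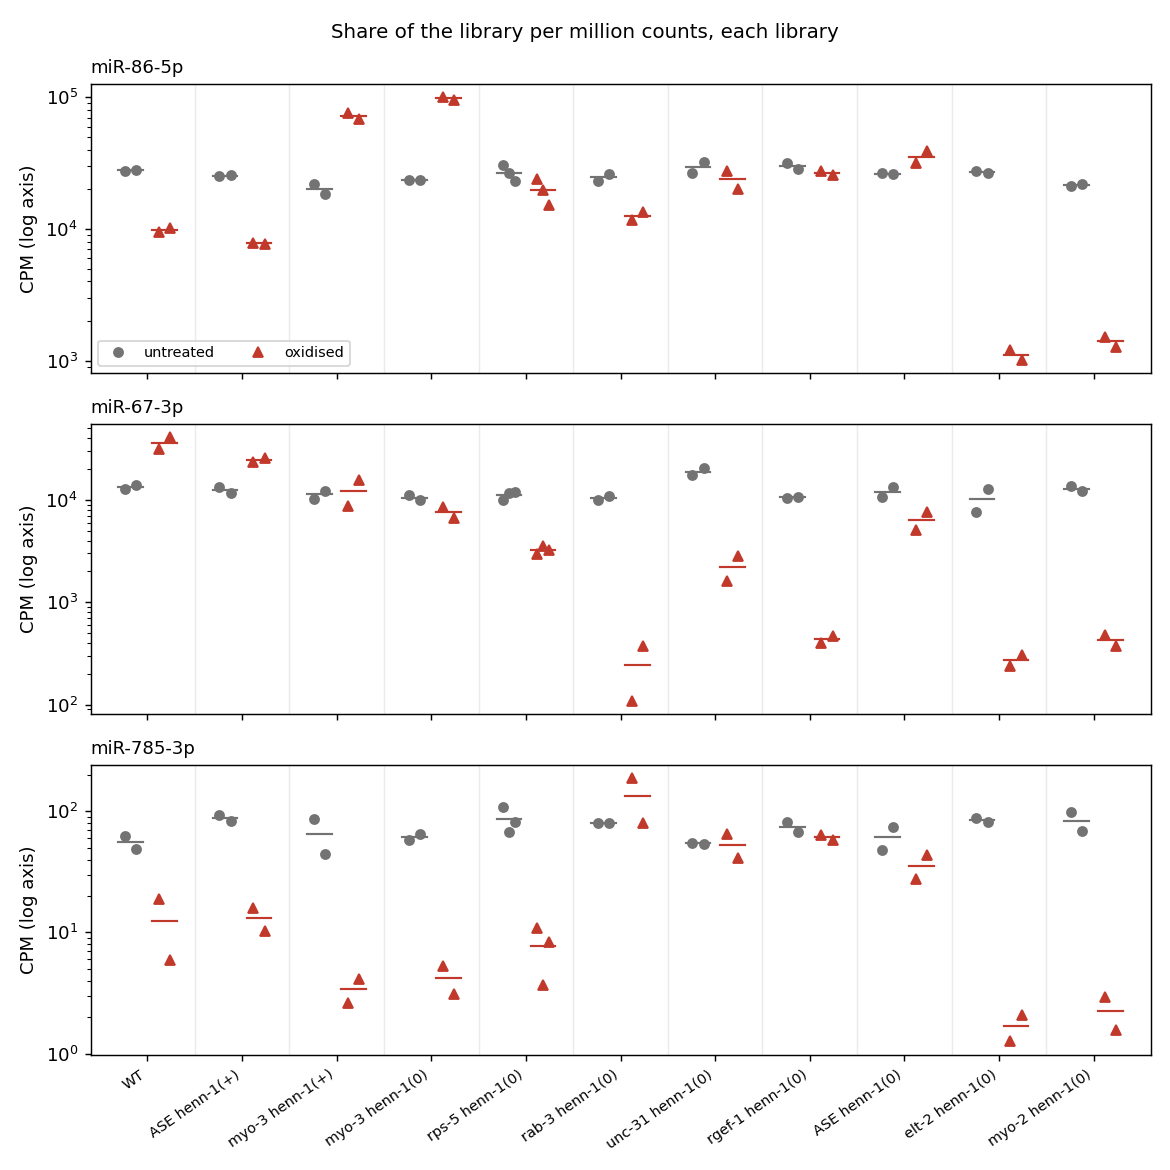
CPM (log axis) of the 3 guide arms in each of the 46 libraries, by genotype; grey circles are untreated libraries, red triangles oxidised ones, and bars are group means. miR-86-5p is highest in the 4 oxidised myo-3 libraries (68500 to 101000), miR-67-3p in the oxidised wild type pair (31500 and 40700), and miR-785-3p keeps its level with the 3 pan-neuronal drivers and falls to 5.27 or less with myo-3.

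The passenger arm miR-86-3p was rarer and moved further. Its untreated levels ran from 12.0 to 117 CPM. In myo-3 henn-1(0) worms it stood at 64.6 and 57.1 CPM untreated and at 2100 and 1560 CPM oxidised, and in myo-3 henn-1(+) worms at 93.4 and 117 CPM untreated and at 2330 and 2770 CPM oxidised. The 4 oxidised libraries were above all others of the series, and the ratios of means were 30.1 and 24.2. The log2 differences were 4.94 ± 0.61 and 4.51 ± 0.59, or 6.65 and 5.50 above the median arm.

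miR-86-3p also rose with neuronal drivers. In rab-3 worms it rose from 25.3 and 30.0 CPM to 263 and 86.1 CPM (2.24 ± 0.54, adjusted p = 0.000385, edgeR), a call that was lost without the library at 263 CPM, library 32797 (1.10, adjusted p = 0.0884, edgeR). In rgef-1 worms it rose from 16.2 and 16.5 CPM to 90.5 and 85.0 CPM (2.23 ± 0.54, adjusted p = 0.00042, edgeR). In unc-31 worms it rose from 22.4 and 46.3 CPM to 113 and 195 CPM (1.34 ± 0.53, adjusted p = 0.0236, edgeR), with adjusted p of 0.194, 0.0616 and 0.0718 without libraries 32950, 32953 and 32954. Oxidised and untreated libraries were apart in all 3. In ASE henn-1(0) worms it rose from 19.5 and 39.1 CPM to 122 and 158 CPM (1.58 ± 0.53, adjusted p = 0.0176, edgeR), and the call was lost without library 42747 (1.12) or 42750 (1.48). The lowest oxidised values were again with elt-2, at 2.05 and 1.82 CPM against 20.1 and 16.0 CPM untreated (−3.26 ± 0.60, adjusted p = 1.05e-05, edgeR). With myo-2 the arm stood at 10.7 and 2.44 CPM against 12.0 and 23.8 CPM (−1.60 ± 0.57, adjusted p = 0.0147, edgeR), at the median arm (0.01), and was not called without library 42755 (−1.06) or 42756 (−0.97) or with RLE factors (−0.38). In rps-5 worms (0.58 ± 0.42) and ASE henn-1(+) worms (−0.90 ± 0.54, but 1.52 with RLE factors) it was not called. Wild type libraries gave −1.87 ± 0.58 (adjusted p = 0.00456, edgeR) but were 0.33 above the median arm, their CPM overlapped at 31.3 and 16.1 untreated and 39.9 and 20.1 oxidised, and the sign was positive with RLE factors (0.56) and total counts (0.29). The wild type call was also lost without library 32793 (−1.29) or 34093 (−1.61).

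In wild type and ASE henn-1(+) worms the share of miR-67-3p went up after oxidation, whereas that of miR-86-5p went down. In wild type worms it stood at 12900 and 14100 CPM untreated and at 31500 and 40700 CPM oxidised, a ratio of means of 2.67. In ASE henn-1(+) worms it stood at 13500 and 11700 CPM untreated and at 23600 and 25700 CPM oxidised, a ratio of 1.95. Its share of the library was higher after oxidation in every library of these 2 genotypes. The scaled differences were −0.66 ± 0.34 (adjusted p = 0.0815, edgeR) and −0.89 ± 0.34 (adjusted p = 0.0208, edgeR), and turned positive with RLE factors (1.71 and 1.48), total counts (1.42 and 0.97), the other TMM reference (1.35 and 1.11) and fits of each genotype's own libraries (1.06 and 1.10). With each of the 46 libraries as the TMM reference in turn, 40 gave a positive wild type difference and 6 a negative one. Relative to the median arm it lay at 1.53 in wild type and 0.94 in ASE henn-1(+) worms, and between 1.06 and 1.58 and between 0.56 and 1.02 over the 8 settings tried. With unweighted means of log2(count + 0.5) over the libraries in place of the fit, these distances were 0.64 and 0.31. Without library 34093 the wild type value was −1.14 (adjusted p = 0.0214, edgeR), and without 40634 or 40635 the ASE henn-1(+) value was −0.81 or −0.65 and not called.

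A ratio within each library does not depend on scaling between libraries. Per 1000 counts of miR-86-5p, wild type libraries held 467 and 500 counts of miR-67-3p untreated and 3310 and 4000 oxidised. The ASE henn-1(+) libraries held 536 and 458 untreated and 3010 and 3330 oxidised. In the other 9 genotypes the mean ratio was lower after oxidation, without overlap between libraries except with elt-2 (276 and 474 untreated, 197 and 305 oxidised). It stood at 84.7 and 69.1 in myo-3 henn-1(0), 116 and 226 in myo-3 henn-1(+), and as low as 9.23 in rab-3 worms. These ratios are descriptions, since oxidation moved both microRNAs.

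With henn-1 deleted, miR-67-3p was depleted with every driver tested. With rab-3 it fell from 10000 and 10900 CPM to 109 and 375 CPM (−5.93 ± 0.42, adjusted p = 1.85e-14, edgeR). With rgef-1 it fell from 10500 and 10700 CPM to 400 and 471 CPM (−4.81 ± 0.40, adjusted p = 1.5e-12, edgeR). With unc-31 it fell from 17400 and 20400 CPM to 1600 and 2830 CPM (−3.96 ± 0.38, adjusted p = 9.32e-11, edgeR). Relative to the median arm these neuronal drivers lay at −5.90, −4.92 and −3.54. The intestinal and pharyngeal drivers gave similar losses. With elt-2 it fell from 7590 and 12700 CPM to 236 and 307 CPM (−5.31 ± 0.41, adjusted p = 1.33e-13, edgeR), and with myo-2 from 13600 and 12200 CPM to 479 and 374 CPM (−4.94 ± 0.40, adjusted p = 4.31e-13, edgeR). The losses were smaller with the broad and the ASE driver. In rps-5 worms it fell from 9920, 11600 and 11800 CPM to 2930, 3570 and 3220 CPM (−2.04 ± 0.29, adjusted p = 3.96e-07, edgeR), and in ASE henn-1(0) worms from 10600 and 13500 CPM to 5040 and 7640 CPM (−1.59 ± 0.35, adjusted p = 0.000343, edgeR). In all 7 genotypes the oxidised and untreated libraries were apart.

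With myo-3, miR-67-3p kept most of its share. In myo-3 henn-1(0) worms it stood at 11100 and 9910 CPM untreated and 8560 and 6620 CPM oxidised, a ratio of means of 0.724. In myo-3 henn-1(+) worms it stood at 10300 and 12300 CPM untreated and 8770 and 15500 CPM oxidised, a ratio of 1.07. The groups were apart, with oxidised below untreated, in the first and overlapped in the second. The log2 differences were −0.44 ± 0.34 and 0.01 ± 0.34, and 1.27 and 0.72 with RLE factors. In the fit both genotypes lay above the median arm, by 1.28 and 1.00, but with unweighted means of log2(count + 0.5) the henn-1(0) value was 1.07 and the henn-1(+) value −0.08. The other 7 henn-1(0) genotypes lay at −1.0 to −5.90 in the fit. With henn-1 intact, keeping the share was not particular to myo-3. The ratio of means was 2.67 in wild type and 1.95 in ASE henn-1(+) worms. The share of miR-67-3p in myo-3 libraries thus did not grow as that of miR-86-5p did.

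The passenger arm miR-67-5p was scarce outside the myo-3 libraries. In myo-3 henn-1(0) worms it stood at 12.4 and 9.58 CPM untreated and 170 and 268 CPM oxidised. In myo-3 henn-1(+) worms it stood at 11.6 and 8.50 CPM untreated and 192 and 163 CPM oxidised. The ratios of means were 20.0 and 17.7. The log2 differences were 4.39 ± 0.65 and 4.06 ± 0.64, and 6.11 and 5.05 relative to the median arm. In the other 19 oxidised libraries the arm had 0 to 91 counts. The highest of these levels was 9.40 CPM, from 4 counts in a wild type library, and the other wild type library had 0 counts, which allows 3.54 CPM at 3 counts.

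Where it was tested, miR-67-5p was called lower in 5 of 9 genotypes and higher in none. Of all arms, 20% (ASE henn-1(0)) to 48.9% (wild type) were called lower in these 9 genotypes. The differences ran from 0.09 ± 0.50 in rps-5 worms to −2.10 ± 0.78 with elt-2 (adjusted p = 0.0152, edgeR), leaving aside rgef-1. In rgef-1 worms 55 untreated counts stood against 3 oxidised ones, a ratio of 8.36 after scaling (95% interval for counting error 2.71 to 41.8). Relative to the median arm the values were near 0 in wild type (0.55), rps-5 (−0.42), elt-2 (−0.67), myo-2 (−0.37), ASE henn-1(0) (−0.19) and ASE henn-1(+) worms (−0.05). Each of the 5 calls was lost without at least 1 library: in rab-3 worms without 32796 (−1.07) or 32797 (−1.41), in rgef-1 worms without 37024 or 37025, with elt-2 without 36212 (−1.64) or 37021 (−1.79), with myo-2 without 42755 (−1.92) or 42756 (−1.07), and in ASE henn-1(+) worms without 40634 (−1.08) or 40635 (−1.47), where the sign also turned with RLE factors (0.49). With RLE factors the elt-2 (−1.33) and myo-2 (−0.75) calls were lost too. The wild type value rested on the 4 counts of library 32794, and none was left without it.

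**Figure D2:**
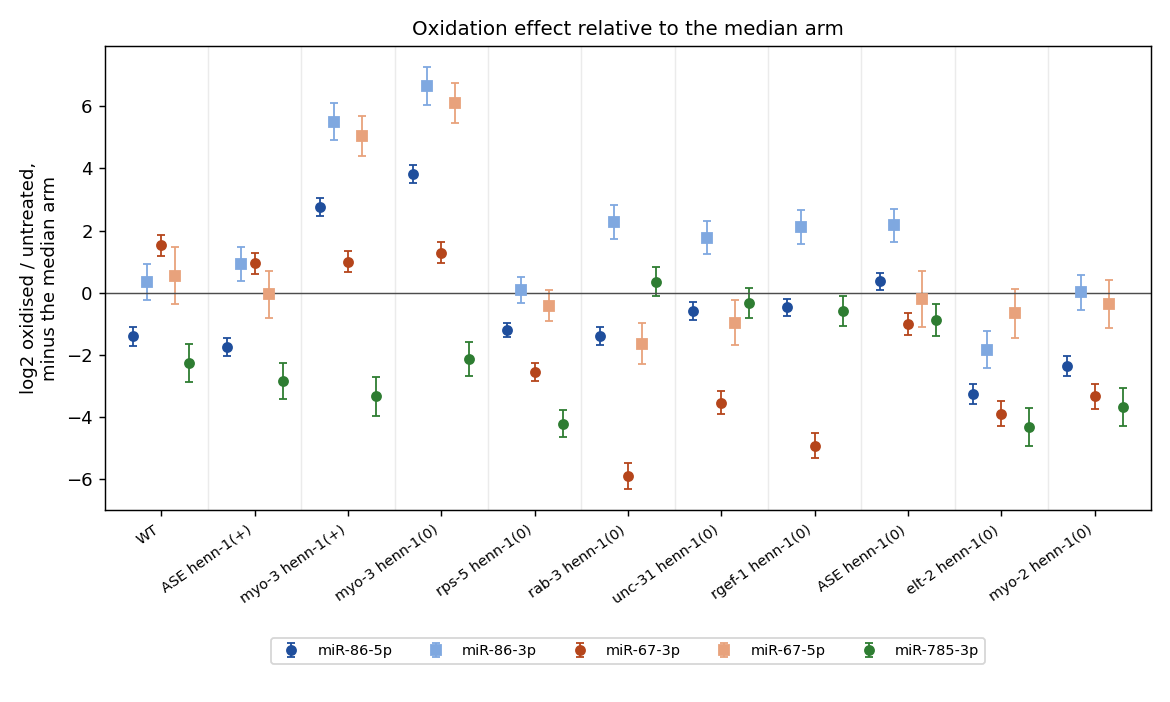
Log2 of oxidised over untreated counts in the edgeR fit, minus the median over all arms of the same comparison, for 5 members in the 11 genotypes; error bars are the SE of the log2 difference, and the rgef-1 value of miR-67-5p, which rests on 3 oxidised counts, is not drawn. With myo-3 both arms of miR-86 and miR-67-5p lie 2.75 to 6.65 above the median arm, and miR-785-3p lies at −2.14 and −3.33.

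The share of the passenger arm within its hairpin needs no scaling between libraries. Among untreated libraries other than myo-3, miR-67-5p made up 0.00856% to 0.0515% of the counts of both arms (median 0.0172%, n = 19). Untreated myo-3 libraries held 0.112% and 0.0692% with henn-1 and 0.111% and 0.0966% without it, all above that range. After oxidation the share was 2.14% and 1.04% with henn-1 and 1.95% and 3.89% without it. The exact 95% binomial intervals, which cover counting error only, were 1.87% to 2.44%, 0.911% to 1.18%, 1.86% to 2.05% and 3.75% to 4.03%. The other 19 oxidised libraries ran from 0% to 0.536% with a median of 0.0594%, and so lay below all 4.

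The measured share of miR-86-3p was higher after oxidation in all 11 genotypes, without overlap between oxidised and untreated libraries in any of them. The 95% intervals for counting error did overlap in wild type, rps-5 and myo-2 worms, as given below. For miR-67-5p the measured shares were apart in this direction in 9 of the 11. Among these 9 are rgef-1, ASE henn-1(0), elt-2 and myo-2, which are set aside below for few counts. The shares overlapped in wild type worms and were lower after oxidation in ASE henn-1(+) worms, the latter also set aside below. Many of these shares rest on few counts. The 2 oxidised libraries held 2 and 1 counts of miR-67-5p with rgef-1, 2 and 3 in ASE henn-1(0), 7 and 2 with elt-2, 7 and 1 with myo-2 and 2 and 7 in ASE henn-1(+) worms. In each of these 5 genotypes at least 1 oxidised library's 95% interval overlapped that of an untreated library, and no direction is read from them. In rps-5 worms the interval of oxidised library 42752, with 14 counts of miR-67-5p, also overlapped an untreated one. For miR-86-3p intervals overlapped in wild type (17 and 17 oxidised counts) and myo-2 worms (29 and 11), and no direction is read there. They also met in rps-5 worms, at 0.27% to 0.306% in oxidised library 36209 and 0.246% to 0.278% in untreated library 42745. Untreated libraries other than myo-3 held 0.0508% to 0.262% of miR-86-3p, with a median of 0.108%. The 4 untreated myo-3 libraries held 0.423% and 0.639% with henn-1, above that range, and 0.272%, just above it, and 0.243%, within it, without henn-1. After oxidation they held 2.98% and 3.88% with henn-1 and 2.03% and 1.61% without it. Among the other oxidised libraries the range was 0.17% to 2.18% with a median of 0.379%, and a rab-3 library at 2.18% stood above both myo-3 henn-1(0) libraries.

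**Figure D3:**
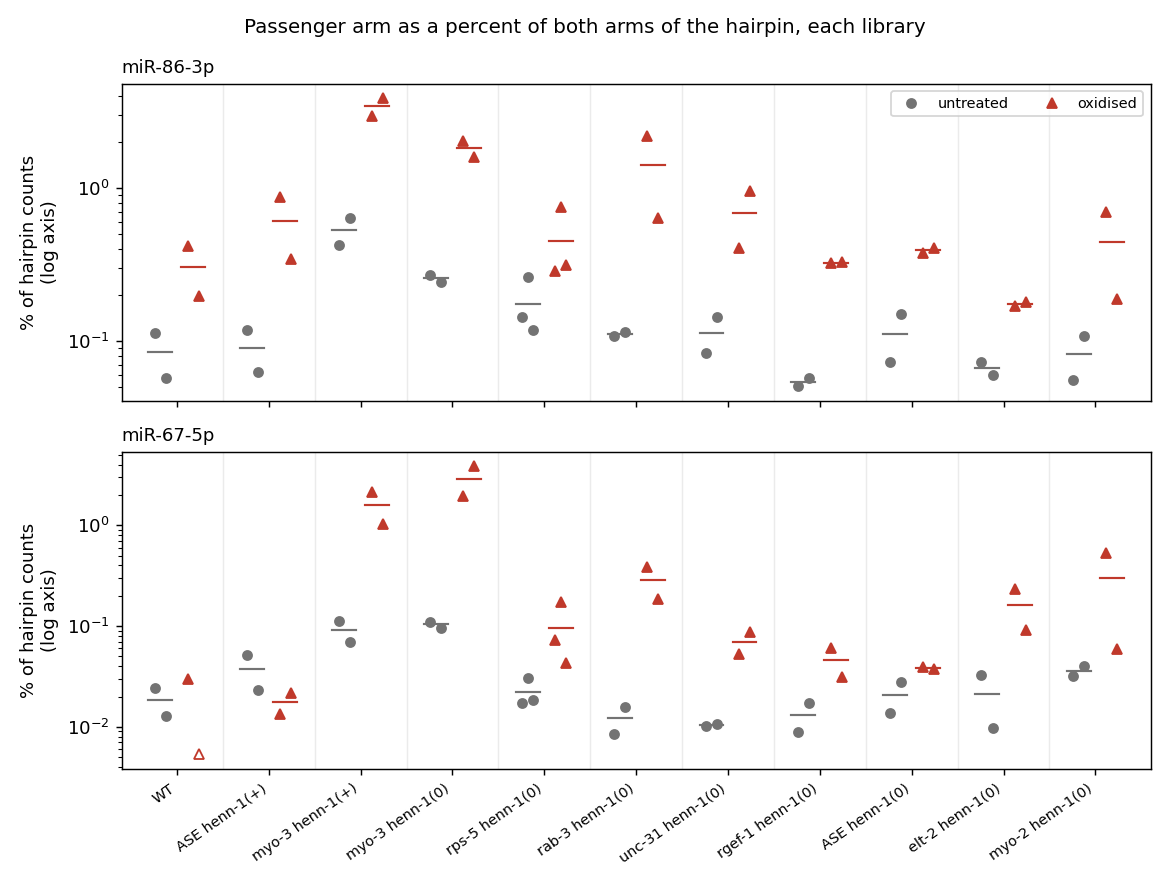
The passenger arm as a percent of the counts of both arms of its hairpin (log axis) in each library, for miR-86-3p and miR-67-5p; grey circles are untreated libraries, red triangles oxidised ones, bars are group means where no library was at 0, and the open triangle marks a wild type library with 0 counts of miR-67-5p. The 4 oxidised myo-3 libraries hold 1.04% to 3.89% for miR-67-5p, above all others, and 1.61% to 3.88% for miR-86-3p.

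miR-785-3p stood near its untreated level with the 3 pan-neuronal drivers and was not called in any of them. In rab-3 worms it stood at 80.6 and 80.1 CPM untreated and at 188 and 79.6 CPM oxidised (0.31 ± 0.47, adjusted p = 0.57, edgeR), and at −0.56 without oxidised library 32797. In unc-31 worms it stood at 55.2 and 54.1 CPM untreated and at 64.9 and 41.4 CPM oxidised (−0.74 ± 0.48, adjusted p = 0.167, edgeR), and without oxidised library 32953 at −1.56, which was called (adjusted p = 0.034, edgeR). In rgef-1 worms it stood at 82.2 and 67.6 CPM untreated and at 64.0 and 57.7 CPM oxidised (−0.48 ± 0.48, adjusted p = 0.365, edgeR). In the fit these 3 genotypes lay within 0.59 of the median arm, at 0.35, −0.32 and −0.59. With unweighted means they lay at 0.2, −0.51 and −0.81. The miR-124-3p marker rose in the same genotypes by 0.98, 1.44 and 2.47.

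Elsewhere miR-785-3p was lower after oxidation. In myo-3 henn-1(0) worms 57.5 and 64.9 CPM untreated stood against 5.27 and 3.08 CPM oxidised, and in myo-3 henn-1(+) worms 85.6 and 44.1 CPM against 2.64 and 4.15 CPM, from 3 and 6 counts. The log2 differences were −3.85 ± 0.54 and −4.32 ± 0.63, or −2.14 and −3.33 relative to the median arm. With unweighted means these distances were −2.36 and −4.17. With elt-2 it fell from 88.0 and 82.3 CPM to 1.26 and 2.10 CPM (−5.75 ± 0.61, adjusted p = 1.86e-10, edgeR). With myo-2 it fell from 98.8 and 68.4 CPM to 2.95 and 1.56 CPM (−5.29 ± 0.62, adjusted p = 1.69e-09, edgeR). Broad expression of the enzyme did not retain it either. In rps-5 worms it fell from 108, 67.4 and 82.0 CPM to 10.9, 3.70 and 8.39 CPM (−3.71 ± 0.43, adjusted p = 5.49e-09, edgeR), and relative to the median arm it lay at −4.21 there and at −4.32 with elt-2. Wild type libraries went from 62.7 and 49.1 CPM to 18.8 and 5.90 CPM (−4.47 ± 0.61, adjusted p = 3.78e-08, edgeR), and ASE henn-1(+) libraries from 93.0 and 82.9 CPM to 15.8 and 10.3 CPM (−4.67 ± 0.59, adjusted p = 6.98e-09, edgeR). In ASE henn-1(0) worms the fall was smaller, from 48.1 and 74.6 CPM to 27.7 and 43.6 CPM (−1.45 ± 0.51, adjusted p = 0.0211, edgeR). That call was lost without library 42748 (−1.24), 42749 (−1.02) or 42750 (−1.71) and with RLE factors (−0.97).

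The passenger arm miR-785-5p had at most 32 counts in a library. In rab-3 worms 4 and 6 untreated counts stood against 32 and 23 oxidised ones (2.39 ± 0.66, adjusted p = 0.00196, edgeR). In rgef-1 worms 1 and 3 counts stood against 5 and 11 (3.04 ± 0.86, adjusted p = 0.0023, edgeR), a call that was lost without oxidised library 37025 (2.41, adjusted p = 0.0574, edgeR). In unc-31 worms 3 and 0 counts stood against 19 and 3, a ratio of 9.09 after scaling (95% interval for counting error 2.73 to 47.4). All oxidised libraries of wild type, elt-2, myo-2 and both ASE genotypes had 0 counts, and the myo-3 ones had 1 count in 1 of the 2 libraries of each genotype. At this depth nothing can be said of the arm in those libraries.

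The differences between genotypes were tested in the same fit. Against wild type, 1 member was lower and 2 or 3 higher of 5 with rps-5 (59.2% of all arms called), rab-3 (57%), unc-31 (55.9%) and rgef-1 (56.5%), 2 were lower with elt-2 (54.2%), 1 was lower with myo-2 (42.5%) and 3 were higher in ASE henn-1(0) worms (53.2%). ASE henn-1(0) against rps-5 had 1 member higher (35.2%). Most of the higher calls against wild type were lost with RLE factors. The pan-neuronal drivers and the broad rps-5 driver parted miR-785-3p from miR-67-3p. Against rps-5, the mean of the 3 pan-neuronal drivers was at 3.40 ± 0.50 for miR-785-3p (adjusted p = 4.77e-07, edgeR; 57.2% of all arms called) and at −2.86 ± 0.35 for miR-67-3p (adjusted p = 2.02e-08, edgeR). For miR-86-5p it was −0.23 ± 0.27 (adjusted p = 0.489, edgeR). With elt-2 against rps-5 (54.2% of all arms called), miR-86-5p was at −3.97 ± 0.37 (adjusted p = 5.57e-11, edgeR) and miR-67-3p at −3.27 ± 0.45 (adjusted p = 1.9e-07, edgeR). With myo-2 against rps-5 (48.9% called), miR-86-5p was at −3.26 ± 0.36 (adjusted p = 3.68e-09, edgeR) and miR-67-3p at −2.90 ± 0.45 (adjusted p = 1.71e-06, edgeR). Against the pan-neuronal mean, the miR-67-3p effect in ASE henn-1(0) worms was less negative, by 3.31 ± 0.41 (adjusted p = 1.17e-07, edgeR; 30.9% of all arms called). These calls held under every alternative scaling, under DESeq2 and without each library in turn.

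Worms without and with henn-1 could be compared by test for the ASE driver, where they also differed in transgenic line. The effect in ASE henn-1(0) minus that in ASE henn-1(+) worms was 3.36 ± 0.40 for miR-86-5p (adjusted p = 8.76e-09, edgeR; 58% of all arms called) and 3.22 ± 0.75 for miR-785-3p (adjusted p = 0.000354, edgeR), where the median arm stood at 2.05. The miR-785-3p call was lost with RLE factors (1.32, adjusted p = 0.123, edgeR). For miR-67-3p it was −0.70 ± 0.48 (adjusted p = 0.219, edgeR) but −2.75 relative to the median arm, and with RLE factors, total counts and the other TMM reference it was −2.59, −1.89 and −2.14 and called. The share of miR-67-3p after oxidation was 24700 ± 1510 CPM with henn-1 and 6340 ± 1840 CPM without it (SD, n = 2). The libraries of the 2 genotypes did not overlap. With myo-3 the same differences, not tested, were 0.34 ± 0.39 for miR-86-5p, −0.45 ± 0.48 for miR-67-3p and 0.47 ± 0.81 for miR-785-3p. ASE henn-1(+) and wild type worms, both with henn-1 intact, differed by 0.03 ± 0.39, −0.23 ± 0.48 and −0.20 ± 0.82 for these arms (adjusted p = 1 for each, edgeR; 4.56% of all arms called).

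Untreated libraries of the 8 transgenic genotypes other than myo-3 were compared with untreated wild type worms. None of 45 tests of members was called by edgeR, 1 had an unadjusted p under 0.05, and DESeq2 called 0; between 0% and 0.253% of all arms were called. That test was miR-86-5p with myo-2 (−0.58 ± 0.28, adjusted p = 0.505, edgeR). In untreated myo-3 libraries, described without a test, miR-86-5p and miR-67-3p were below the wild type level and their passenger arms above it. miR-67-5p stood 2.04 ± 0.60 above wild type without henn-1 and 1.48 ± 0.59 with it, and miR-86-3p 1.24 ± 0.52 and 1.6 ± 0.53. miR-86-5p stood at −0.36 ± 0.27 and −1.01 ± 0.28, and miR-67-3p at −0.48 ± 0.34 and −0.80 ± 0.34.

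The 3 guides did not share a pattern over the 11 oxidation effects. Pearson correlations, given as a description over 11 genotypes that share 1 scaling, were 0.40 between miR-86-5p and miR-785-3p, 0.42 between miR-86-5p and miR-67-3p, and −0.36 between miR-67-3p and miR-785-3p. The arms of miR-86 correlated at 0.97 and those of miR-67 at 0.66. Among arms of other hairpins with at least 10 CPM in untreated libraries, the 3 most like miR-86-5p were miR-2-3p (0.93), miR-59-3p (0.92) and miR-50-5p (0.91), where miR-1-3p of muscle was at 0.68. The 3 most like miR-67-3p were miR-1820-5p (0.91), miR-36-5p (0.75) and miR-79-3p (0.74). The 3 most like miR-785-3p were miR-1022-5p (0.95), miR-234-3p (0.95) and miR-87-3p (0.92), and miR-124-3p of neurons was at 0.84. In the myo-3 libraries without and with henn-1 the differences were 2.21 and 1.89 for miR-50-5p, whereas miR-2-3p stood at 0.50 and 0.24 there.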

How the data were processed

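Small RNAs of 18 to 30 nt from total RNA were sequenced in 46 libraries, 23 of them after periodate oxidation. For each library the authors deposited a table of estimated counts per microRNA arm; per the submitters' processing notes, cutadapt 1.2.1 and HTSeq 0.6.1p1 were used with the WBcel235 genome, with no role stated for either tool. These expected counts were rounded to whole numbers, which changed no value of the members. Counts per 1000000 were computed here from the total of each table.

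All 46 libraries entered 1 fit with 22 group coefficients in edgeR 4.0.16 (limma 3.58.1, R 4.3.3), with TMM scaling, a filter at 10 counts that kept 395 arms, robust quasi-likelihood tests and Benjamini-Hochberg adjustment over all arms of a comparison at 0.05. The residual degrees of freedom were 24. The procedure was run on simulated data, with changes planted in a single group on a common profile. The simulation did not cover the shifts of the median arm between genotypes. Alternatives were RLE factors, total counts, no filter, the transgenic line as a block, each genotype's own libraries, DESeq2 1.42.0, leaving out each library, and, added after seeing the data, TMM with another reference library. The reference was held fixed in the other TMM fits except those of each genotype's own libraries and the fit without the reference library itself.

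The named arms are the 6 members, 4 tissue markers and, for each guide, the 3 arms of other hairpins with the highest correlation of oxidation effects. Members and lists were chosen with earlier results of these data known. The part of the naming rule on shared seeds was not used, since no sequences were at hand. Per the labels, an oxidised and an untreated library of the same transgenic line form a pair; their deviations from the group means correlated at 0.72 to 0.77 in rps-5 worms for libraries with adjoining numbers, at −0.34 and −0.33 for the other pairings within the rps-5 line that has 2 replicates, and at 0 to 0.5 in the other genotypes. No libraries held identical values. Where nothing says that libraries came from separate cultures, p-values measure only the spread between libraries.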

Additional observations from a re-analysis of the deposited data

Results flagged for a closer look

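The effect of oxidation differed between genotypes in 38 of 70 tests of a difference (edgeR quasi-likelihood test, Benjamini-Hochberg adjusted p under 0.05). Of all arms, 30.9% to 59.2% were called in these comparisons, and 4.56% for ASE henn-1(+) minus wild type. The number of called members alone is therefore no result about the members. Values are differences of log2 effects. Each has 2 libraries per genotype and treatment, or 3 for rps-5, and many share the wild type or rps-5 libraries.

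For miR-67-3p the effect minus that in wild type worms was −1.38 with rps-5, −5.27 with rab-3, −3.30 with unc-31, −4.14 with rgef-1, −4.65 with elt-2 and −4.27 with myo-2. The rps-5 value was not called without wild type library 34093 (−0.90). Against rps-5 it was −2.86 for the pan-neuronal mean, −3.27 for elt-2 and −2.90 for myo-2, and ASE henn-1(0) minus the pan-neuronal mean was 3.31. For miR-67-5p, −2.10 for the pan-neuronal mean and −2.18 for elt-2 against rps-5 were called. Both calls were lost with another TMM reference, at −1.40 and −1.07, and without rps-5 library 42746, at −1.38 and −1.46. The elt-2 call was also lost with RLE factors (−1.20) and without any of libraries 36208, 42751, 36212, 36213 and 37021, at −2.80 to −1.73.

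For miR-86-5p the effect minus that in wild type was 2.90 with rps-5, 2.18 with rab-3, 2.59 with unc-31, 3.25 with rgef-1 and 3.39 with ASE henn-1(0). With RLE factors the first 4 were 0.29, −0.38, 0.36 and 0.55 and not called. The elt-2 value of −1.07 was lost without library 34093 (−0.77), 37020 (−0.96) or 37021 (−0.97). Against rps-5 the values were −3.97 with elt-2 and −3.26 with myo-2, and ASE henn-1(0) minus ASE henn-1(+) was 3.36.

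For miR-86-3p the values against wild type were 2.45 with rps-5, 4.11 with rab-3, 3.21 with unc-31, 4.10 with rgef-1 and 3.45 with ASE henn-1(0). With RLE factors they were −0.19, 1.44, 1.01, 1.36 and 1.51, none of them called. Against rps-5 the pan-neuronal mean was 1.36, a call lost without library 36209, 42745, 42752 or 32797 (0.93 to 1.25). The elt-2 value was −3.84 and the myo-2 value −2.18, the second lost with RLE factors (−0.75) and without library 42755 (−1.65) or 42756 (−1.55). ASE henn-1(0) minus ASE henn-1(+) was 2.48, and 0.55 and not called with RLE factors.

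For miR-785-3p the values against wild type were 4.78 with rab-3, 3.73 with unc-31, 3.99 with rgef-1 and 3.02 with ASE henn-1(0). With RLE factors the last 3 were 1.5, 1.30 and 1.12 and not called. Against rps-5 the pan-neuronal mean was 3.40, elt-2 −2.04 and ASE henn-1(0) 2.25. The elt-2 call was lost with RLE factors (−0.98) and without library 36213 (−1.66). ASE henn-1(0) minus ASE henn-1(+) was 3.22.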

How the results depend on the processing

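Values follow the order RLE factors, total counts, another TMM reference, own libraries and DESeq2, with values that kept both call and sign left out; differences between genotypes that no setting called are listed only where printed above. The sign turned for miR-67-3p in wild type (1.71, 1.42, 1.35, 1.06, 1.71) and in ASE henn-1(+) worms (1.48, 0.97, 1.11, 1.10, 1.48). It also turned for miR-86-3p in wild type (0.56, 0.29, 0.23 and, with DESeq2, 0.56) and in ASE henn-1(+) worms (1.52, 1.04, 1.10, 1.14, 1.52), and for miR-67-5p in ASE henn-1(+) worms (RLE 0.49, reference 0.11, own 0.15, DESeq2 0.48). Against wild type it turned for miR-86-3p with rps-5 (−0.19 with RLE and with DESeq2), miR-785-3p with rps-5 (−1.86, −1.16, −1.64 and, with DESeq2, −1.86) and miR-86-5p with rab-3 (−0.38 with both).

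Signs also turned where neither value was called: miR-86-5p in ASE henn-1(0) (0.25, 0.43, 0.31, 0.31, 0.25), miR-67-5p in wild type (0.75, 0.48, 0.42, 0.04, 0.76) and rps-5 worms (RLE −0.13, reference −0.17, own −0.27, DESeq2 −0.14, line block −0.03), miR-785-5p in rps-5 worms (−0.19, reference −0.25, DESeq2 −0.19) and miR-785-3p in unc-31 worms (reference 0.05). Between genotypes this held for miR-67-5p in rps-5 (−0.88, −0.05, −0.59, DESeq2 −0.91) and rab-3 worms (0.10 without the filter, 0.07 with the block) against wild type, miR-86-5p in ASE henn-1(+) against wild type (total −0.21, reference −0.01) and miR-86-5p in the pan-neuronal mean against rps-5 (reference 0.52). With 1 library left out the sign turned within the range −0.64 to 0.47 for miR-67-5p and −1.44 to 0.74 for miR-785-5p in rps-5 worms, −0.56 to 0.85 for miR-785-3p in rab-3 worms and −1.34 to 0.17 for miR-67-5p in ASE henn-1(0) worms. For ASE henn-1(+) minus wild type it turned within −0.58 to 0.25 for miR-67-3p, −0.22 to 0.33 for miR-86-5p and −0.74 to 0.47 for miR-785-3p. For miR-67-5p against wild type the ranges were −1.26 to 6.79 with rab-3 and −2.52 to 5.53 with rgef-1; each upper end is fitted to a wild type oxidised count of 0 and is no estimate of size.

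The miR-86-5p call in unc-31 worms was lost with total counts (−0.30), the other reference (−0.22) and own libraries (−0.28), and rgef-1 gained a call with RLE and DESeq2 (−0.68). The miR-785-3p call in ASE henn-1(0) worms was lost in all 5 (−0.97, −0.78, −0.90, −0.89, −0.97). ASE henn-1(0) minus ASE henn-1(+) gained a call for miR-67-3p (RLE −2.59, total −1.89, reference −2.14, DESeq2 −2.59) and lost it for miR-785-3p (1.32 with RLE and DESeq2). In myo-3 henn-1(0) worms, with RLE or DESeq2, the other reference and own libraries, miR-67-3p moved to 1.27, 0.76 and 0.81, miR-86-5p to 3.83, 3.30 and 3.35, and miR-785-3p to −2.16, −2.67 and −2.60. In myo-3 henn-1(+) worms RLE and DESeq2 gave 0.72 for miR-67-3p and 2.51 for miR-86-5p. The cause was not tested.

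With the transgenic line as a replicate block, miR-67-3p in wild type stayed at −0.66 and gained a call (adjusted p = 0.0434, edgeR), as did miR-67-5p in unc-31 worms (−1.39) and for myo-2 against rps-5 (−2.03); no other call of a member changed. Without the filter no call changed.

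With 1 library left out, the differences ran from −1.14 to −0.31 for miR-67-3p in wild type and −1.19 to −0.65 in ASE henn-1(+), from −0.93 to −0.57 for miR-86-5p in rps-5, −1.70 to −0.56 in unc-31 and 1.44 to 1.93 in myo-3 henn-1(+), and from −1.56 to −0.24 for miR-785-3p in unc-31 and −1.78 to −1.02 in ASE henn-1(0) worms.

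Over all arms, rps-5 worms had 227 calls, and 134 with own libraries; ASE henn-1(0) minus ASE henn-1(+) had 229, and 150 with RLE and 152 with DESeq2; ASE henn-1(0) minus rps-5 had 139, and 91 to 141 with 1 library left out (91 without 42750). Untreated against wild type, calls numbered 1 for rps-5 (RLE 7, total 4, block 2, DESeq2 23, 0 to 4 with 1 library left out), 1 for myo-2 (block 6, DESeq2 5, 0 to 1), 1 for ASE henn-1(0) (block 3, 0 to 0) and 0 for rab-3 (DESeq2 1), unc-31 (block 2, DESeq2 3), rgef-1 (block 1, DESeq2 1), elt-2 (DESeq2 1, 0 to 2) and ASE henn-1(+) (RLE 2, total 2, block 4, DESeq2 4). Depth limited the passenger arms of miR-67 and miR-785, which had few counts in oxidised libraries.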

Other observations

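The microRNA genes nearest to 2 of the hairpins were looked up by position after the members' values were seen. mir-8211 lies 182 bases from mir-86. Its arm miR-8211-5p had 30 counts untreated and 382 oxidised in myo-3 henn-1(0) worms (4.55 ± 0.45), and 18 and 46 counts in myo-3 henn-1(+) worms (4.73 ± 0.49). It rose by 1.99 with rab-3, 2.60 with unc-31, 3.12 with rgef-1, 1.71 with rps-5 and 3.35 in ASE henn-1(0) worms (adjusted p between 1.27e-07 and 0.000428, edgeR). With elt-2, 26 untreated counts stood against 1 oxidised count, and the counts were 58 and 0 in wild type, 9 and 0 with myo-2 and 42 and 2 in ASE henn-1(+) worms. The other arm, miR-8211-3p, was at 5.22 ± 0.70 in myo-3 henn-1(0) and 5.33 ± 0.77 in myo-3 henn-1(+) worms. Its differences were 1.48 with rps-5, 2.74 with rab-3, 3.24 with unc-31, 4.56 with rgef-1 and 4.69 in ASE henn-1(0) worms. It had 16 and 0 counts in wild type, 4 and 2 with elt-2, 4 and 0 with myo-2 and 21 and 5 in ASE henn-1(+) worms.

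mir-359 lies 268 bases from mir-785. miR-359-3p had 229 counts untreated and 167 oxidised in myo-3 henn-1(0) worms (0.45 ± 0.38) but 192 and 5 in myo-3 henn-1(+) worms (−1.84 ± 0.58). With rab-3 it fell by 1.59 (adjusted p = 0.000432, edgeR) and with rps-5 by 2.42 (adjusted p = 5.36e-07, edgeR). With rgef-1 it was at −0.55 ± 0.39 (adjusted p = 0.207, edgeR).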
